A study of Arabidopsis thaliana with 6 samples.

Results

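The CAMTA genes of Arabidopsis thaliana encode a family of calmodulin-binding transcription activators, and all 6 of them (CAMTA1 to CAMTA6) were taken by gene identifier from the 27655 genes of the deposited table. CAMTA1 (AT5G09410), CAMTA2 (AT5G64220), CAMTA3 (AT2G22300), CAMTA4 (AT1G67310), CAMTA5 (AT4G16150) and CAMTA6 (AT3G16940) each passed the filter on low counts, which kept 19495 genes. The rule that chose the members is the family name and uses no measured value, although earlier results of these data were known when the family was picked. The smallest count of any member in any library was 407. Messenger RNA was sequenced from wild-type Col-0 seedlings aged 14 days, grown on MS-agar plates under long days. The air group was left in air for 1 h, and the submerged group spent 1 h under water. Each group had 3 libraries of whole seedlings, described by the submitters as biological replicates with air as the control. How the replicates were grown apart is not given, so the p-values here speak for these libraries and their spread, part of which may be technical.

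A CAMTA protein binds DNA through its CG-1 domain and also binds calmodulin, a calcium sensor of the cell. The family is thereby placed between a calcium signal and transcription, and its members recognise promoters that hold a CGCG core. In Arabidopsis, CAMTA3 is known for repressing salicylic acid defence genes, and CAMTA1, CAMTA2 and CAMTA3 for overlapping roles in that repression and in the early induction of cold-response genes.

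After 1 h under water the transcripts of CAMTA1, CAMTA2 and CAMTA3 were higher and that of CAMTA6 lower than in air, while CAMTA4 lay just past the threshold on the lower side and CAMTA5 did not pass. CAMTA3 rose most, 1.63-fold, and CAMTA6 fell most, 1.53-fold. No member changed as much as 2-fold, whereas 15.3% of all tested genes were called and changed by at least that much.

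The sequences in front of the 3 members called higher are shown because CAMTA proteins act on promoters, and the family's own binding core can be looked for in its own genes. Each runs 5′ to 3′ over the 250 bases before the annotated gene start and was read from the RefSeq TAIR10.1 genome by its own annotation. Capitals mark the motifs described in the next paragraph.
CAMTA1 promoter, chr5:2920577-2920826, plus strand: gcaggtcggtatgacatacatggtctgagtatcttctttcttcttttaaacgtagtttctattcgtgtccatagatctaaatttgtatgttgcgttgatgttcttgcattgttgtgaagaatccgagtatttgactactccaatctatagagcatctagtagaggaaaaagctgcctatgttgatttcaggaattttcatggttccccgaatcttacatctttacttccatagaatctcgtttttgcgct
CAMTA2 promoter, chr5:25685943-25686192, plus strand: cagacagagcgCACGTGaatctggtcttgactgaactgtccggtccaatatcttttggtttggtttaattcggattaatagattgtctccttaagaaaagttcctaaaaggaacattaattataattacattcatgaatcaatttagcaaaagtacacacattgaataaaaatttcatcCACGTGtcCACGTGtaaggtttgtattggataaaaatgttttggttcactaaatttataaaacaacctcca
CAMTA3 promoter, chr2:9470969-9471218, plus strand: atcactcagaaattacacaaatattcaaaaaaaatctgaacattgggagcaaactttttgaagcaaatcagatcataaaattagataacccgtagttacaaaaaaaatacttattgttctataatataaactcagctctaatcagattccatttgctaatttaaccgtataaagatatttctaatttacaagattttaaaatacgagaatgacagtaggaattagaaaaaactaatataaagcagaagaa

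Both strands were searched for CGCGTT, for ACGCGT and for the CGCG box, in which the core follows any base but thymine and precedes any base but adenine. These overlap one another, since ACGCGT is itself a CGCG box and CGCGTT can overlap one. CGCGTT was in 2.59% of 27443 promoters of this length, ACGCGT in 1.67% and the CGCG box in 6.23%. None of the 3 was found in the printed windows of CAMTA1, CAMTA2 and CAMTA3. The letters CACGTG, searched for after the sequences had been seen, were present at 3 places in CAMTA2, starting at -239, -71 and -63 from the start, and in 6.49% of all promoters. These matches describe letters in a window and not sites of binding.

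The binding core is printed here for the 4 genes that hold a match in this window among the listed targets of CAMTA factors, 10 known to be promoted and 14 known to be repressed. The other listed targets had neither CGCGTT nor a CGCG box there. Each line gives 30 bases with a single match in capitals. In CBF2 a CGCGTT starting at -74 overlaps the printed match, as does an ACGCGT starting at -36 in NDR1. EIN3 holds another CGCG box, starting at -192, that is not printed.
CBF2 site, chr4:13016293-13016322, minus strand: gagacagaaactCCGCGTtcgaccccacaa
ZAT12 site, chr5:24102757-24102786, plus strand: gtctcttaagctACGCGGtgtcgcaaatcg
NDR1 site, chr3:7194722-7194751, plus strand: tgtatttggctaAACGCGtgtgtgcgtgtg
EIN3 site, chr3:7263585-7263614, minus strand: ataaataaaactCCGCGTaagaaacaatta

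Library totals ran from 20.3 to 25.9 in air and from 20.04 to 29.7 under water, in 1e6 counts. Of the 19495 genes tested with edgeR's quasi-likelihood test, 55% had an adjusted p under 0.05. Of the tested genes, 28.8% were called higher and 26.1% lower, or 22.9% and 34.9% when scaled by upper quartiles, a choice that moved the median of all genes by -0.12 on the log2 scale. Summed root marker levels were 1644 to 1933 CPM (counts per 1e6 counts, scaled by TMM factors) in air and 849 to 1226 CPM under water, with 0 of 14 tested markers called higher and 1 lower, out of 16 listed. Summed leaf marker levels were 42874 to 45161 CPM in air and 31147 to 34609 CPM under water, with 1 of 8 called higher and 6 lower. No listed marker was at 0 in all libraries. In RNA of whole seedlings, fewer cells of a type and less RNA per cell cannot be told apart. The root marker score, a mean of centred log2 CPM over the 14 tested markers, did not follow the sum. It was 0.04, 0.41 and -0.75 in the air libraries and 0.25, 0.18 and -0.13 in the submerged ones. Among the air libraries, 11 of these markers were lowest in replicate 3. With this score as a covariate, the log2 fold changes of CAMTA1, CAMTA2, CAMTA3 and CAMTA6 were 0.42, 0.54, 0.72 and -0.60, and all 4 were still called. The part of root cells behind the fall of the sum, and that of leaf cells, in these values was not tested.

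The design asks which transcripts respond to 1 h of submergence. Of the 6 members, 3 were called higher, beside 28.8% of all tested genes, and 2 lower, beside 26.1%. For 5 members the CPM ranges of air and water were apart, 3 of them higher under water and 2 lower; among all tested genes this held for 62.1%, with 32.2% higher and 30% lower. The median size of the log2 fold change was 0.48 over the members and 0.38 over all tested genes. The members that were called moved in opposite directions.

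**Figure D1:**
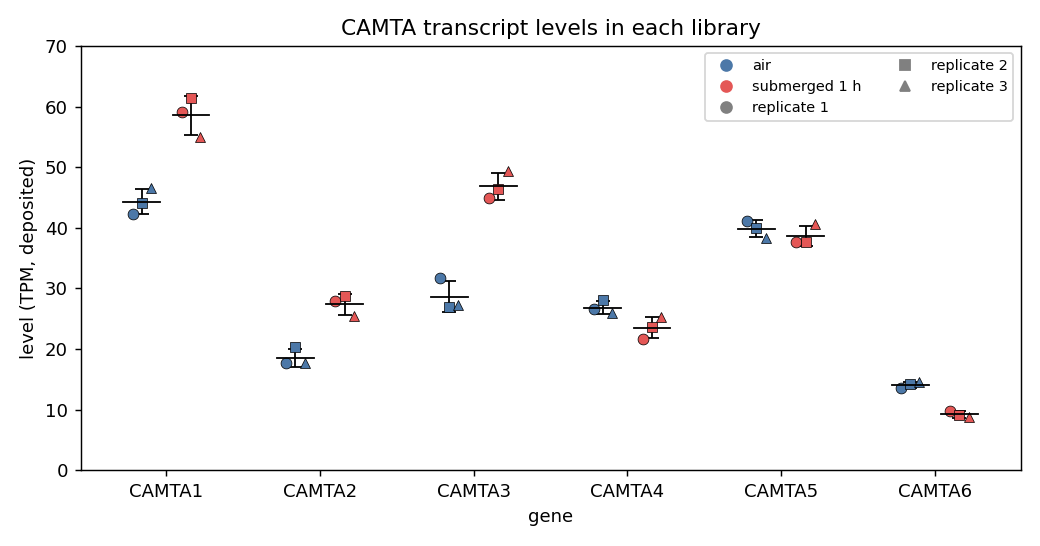
Level of each CAMTA member in every library, in deposited TPM (transcripts per 1e6 transcripts), with air (blue) and submerged (red) libraries side by side; symbols stand for replicates, long lines for the mean and bars for the SD of 3. The submerged libraries lie above all air libraries for CAMTA1, CAMTA2 and CAMTA3, lie below them for CAMTA4 and CAMTA6, and overlap for CAMTA5.

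CAMTA3, also called SR1, is the member studied most in plant immunity. Its level was 80.0, 66.1 and 69.3 CPM in the air libraries and 111, 115 and 126 CPM in the submerged ones. Every submerged library lay above every air library, by at least 30.8 CPM. The means were 71.8 ± 7.27 and 117 ± 8.03 CPM (SD, n = 3), a log2 fold change of 0.71 ± 0.08 (SE; edgeR adjusted p = 5.45e-06). A smaller size of change was found in 73.5% of tested genes. The 69 exon bases shared with UBP4, a ubiquitin protease gene on the opposite strand, were 1.68% of the exon bases of CAMTA3. Reads there cannot be told apart without the strand setting, which is not given. UBP4 had 471 counts over the air libraries and 362 over the submerged ones, with a log2 fold change of -0.47 ± 0.19 (edgeR adjusted p = 0.0511).

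CAMTA2 acts with CAMTA1 and CAMTA3 in the repression of defence genes in warm-grown plants. Its level was 41.7, 46.5 and 41.7 CPM in air and 64.1, 66.7 and 60.6 CPM under water. The groups were separated by 14.2 CPM, with submerged replicate 3 the lowest of its group. Mean levels were 43.3 ± 2.77 and 63.8 ± 3.03 CPM (SD, n = 3), which gave 0.56 ± 0.07 on the log2 scale (edgeR adjusted p = 1.09e-05).

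CAMTA1 is the closest relative of CAMTA2 and has been linked to drought and auxin responses; the deposited table names it EICBP.B. The air libraries held 96.1, 97.2 and 106 CPM and the submerged ones 131, 137 and 127 CPM. Again the groups were apart, here by 20.6 CPM. The rise was the smallest of the 3, with a log2 fold change of 0.40 ± 0.06 (edgeR adjusted p = 8.93e-05) between 99.8 ± 5.37 and 131 ± 5.17 CPM (SD, n = 3), and 52.4% of tested genes changed by less.

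CAMTA6, known from work on sodium homeostasis in germinating seeds, was the member with the lowest level and the clearest fall. It had 32.3, 32.7 and 34.8 CPM in air and 22.7, 21.4 and 21.0 CPM under water. All submerged libraries were below all air libraries, by at least 9.64 CPM. From 33.3 ± 1.34 to 21.7 ± 0.873 CPM (SD, n = 3), the transcript fell by 0.61 on the log2 scale (SE 0.07; edgeR adjusted p = 1.26e-05). An overlap with LPD1_2, a lipoamide dehydrogenase gene on the other strand, covered 13 exon bases, or 0.337% of CAMTA6. LPD1_2 had 3482 counts over the air libraries and 2938 over the submerged ones and was itself called lower, at -0.32 ± 0.08 on the log2 scale (edgeR adjusted p = 0.00345); its part in the CAMTA6 value was not tested.

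CAMTA4 had 49.9, 51.03 and 49.0 CPM in air and 39.8, 43.4 and 48.2 CPM under water. The groups did not overlap, but the highest submerged library lay only 0.82 CPM below the lowest air library. The log2 fold change of -0.19 ± 0.07 passed the threshold narrowly (edgeR adjusted p = 0.0389), between 49.97 ± 1.03 and 43.8 ± 4.19 CPM (SD, n = 3). Its call was lost when any library other than submerged replicate 3 was left out: the adjusted p was 0.0828, 0.0938 and 0.0588 without air replicates 1, 2 and 3, and 0.216 and 0.112 without submerged replicates 1 and 2. Without submerged replicate 3 the log2 fold change was -0.26. The call was also lost with DESeq2 (adjusted p = 0.0530).

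CAMTA5, which with CAMTA3 is known for early cold induction of CBF genes, stood at 80.7, 76.0 and 75.4 CPM in air and 72.0, 72.3 and 80.5 CPM under water. Submerged replicate 3 lay among the air libraries, so the groups overlapped. The mean levels of 77.3 ± 2.88 and 74.9 ± 4.79 CPM (SD, n = 3) gave a log2 fold change of -0.05 ± 0.06 (edgeR adjusted p = 0.548). With upper quartile scaling CAMTA5 was called lower, at -0.17 (adjusted p = 0.0298).

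**Figure D2:**
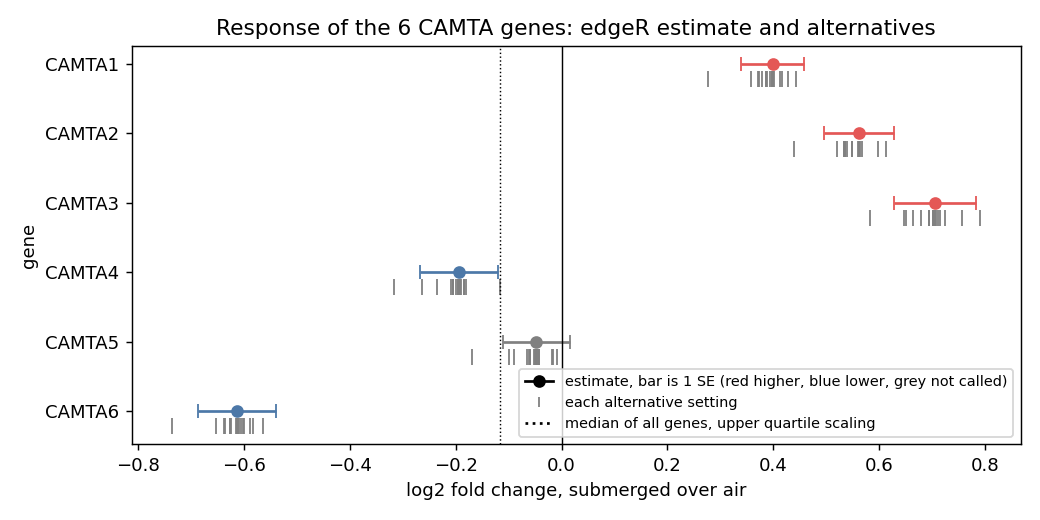
Log2 fold change of each member, submerged over air, with 1 SE, ticks for the 19 alternative analyses, and a dotted line at the median of all genes under upper quartile scaling. CAMTA1, CAMTA2 and CAMTA3 stay above 0 and CAMTA6 stays below it in every alternative shown. CAMTA4 (-0.32 to -0.12) and CAMTA5 (-0.17 to -0.01) also stay below 0, nearer to it than CAMTA6.

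The authors' deposited table of their own comparison gives the same order of log2 fold changes, with 0.70 for CAMTA3, 0.56 for CAMTA2, 0.40 for CAMTA1, -0.05 for CAMTA5, -0.20 for CAMTA4 and -0.61 for CAMTA6. The false discovery rate for CAMTA4 in the authors' deposited table was 0.0210, and for CAMTA5 0.592.

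Levels of different genes were compared per length, in the deposited TPM. In air the order of mean TPM was CAMTA1 at 44.3, CAMTA5 at 39.8, CAMTA3 at 28.7, CAMTA4 at 26.8, CAMTA2 at 18.5 and CAMTA6 at 14.1. Of neighbours in that order, CAMTA3 and CAMTA4 alone overlapped in range, with CAMTA3 above in 2 of 3 libraries. Under water the order was CAMTA1 at 58.5, CAMTA3 at 46.9, CAMTA5 at 38.6, CAMTA2 at 27.4, CAMTA4 at 23.5 and CAMTA6 at 9.24 TPM, and no neighbours overlapped. CAMTA3 thus passed CAMTA5 in every submerged library, and CAMTA2 passed CAMTA4. In submerged replicate 3, however, CAMTA2 at 25.38 TPM and CAMTA4 at 25.30 TPM were almost equal.

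The summed TPM of the family was 173, 174 and 170 in the air libraries and 201, 207 and 204 in the submerged ones. The sum of CAMTA1 to CAMTA3 was 91.6, 91.5 and 91.4 TPM in air and 132, 137 and 130 TPM under water, and that of CAMTA4 to CAMTA6 was 81.3, 82.2 and 78.9 TPM in air and 69.3, 70.4 and 74.6 TPM under water. The former sum was higher in all submerged libraries and the latter lower. CAMTA1 to CAMTA3 made up 53.1 ± 0.509% of the family's TPM in air and 65.03 ± 1.34% under water (SD, n = 3). A two-sided exact permutation test gave p = 0.1 for each of these 4 differences, the smallest value that 3 against 3 libraries allow, and the sums were grouped with the members' directions known.

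**Figure D3:**
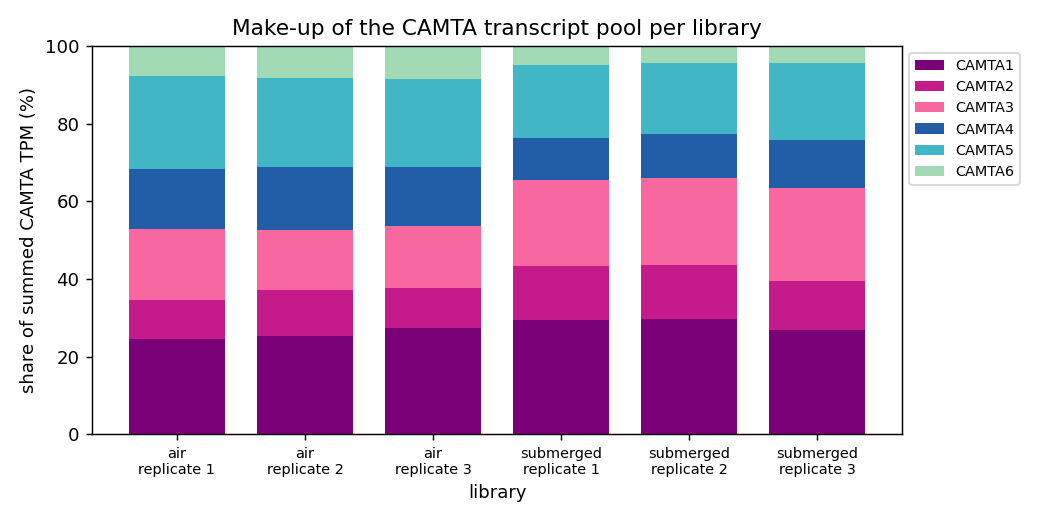
Stacked bars give the share of each member in the summed TPM of the family, in percent, for each of the 6 libraries. The share of CAMTA3 is larger and those of CAMTA4, CAMTA5 and CAMTA6 are smaller in the 3 submerged libraries.

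CAMTA3 gained the largest share, from 16.6 ± 1.47% to 22.96 ± 1.03% (SD, n = 3), and CAMTA5, whose own level was not called, went from 23.1 ± 0.644% to 18.9 ± 0.848% as the others moved. CAMTA6 went from 8.20 ± 0.354% to 4.53 ± 0.306%. For these 3 members, as for CAMTA2 and CAMTA4, the groups did not overlap, with an exact permutation p of 0.1 and 0.12 adjusted over 6 members. Shares of 1 total depend on one another, and the like was not computed for other sets of genes. The share of CAMTA1 overlapped between groups, at 25.7 ± 1.43% and 28.7 ± 1.51% (exact permutation p = 0.2).

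Differences in response between members were taken as log2 ratios of counts within a library, which no scaling between libraries can move. Of 15 pairs, 14 did not overlap between the groups. The pairs are built from the same 6 genes and are not independent, and the share over pairs of other genes was not computed. Of single tested genes, 62.1% had CPM ranges that were apart. None passed an adjusted threshold of 0.05, because the smallest exact permutation p is 0.1, which became 0.107 after adjustment over the 15 pairs. The ratio of CAMTA3 to CAMTA6 moved furthest, from 1.31, 1.01 and 0.99 in air to 2.29, 2.42 and 2.59 under water, a difference of 1.33 on the log2 scale. The ratio of CAMTA2 to CAMTA3 was the one that overlapped, with a difference of -0.15 and a pooled SD of 0.19 (exact permutation p = 0.4), and it ran from -0.26 to -0.04 with 1 library left out.

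The pairs with the most similar coding sequences behaved differently from each other. CAMTA1 and CAMTA2 were 81.0% identical over the aligned coding bases, CAMTA5 and CAMTA6 78.7%, and the other 13 pairs 61.1% to 66.6%. CAMTA1 and CAMTA2 both rose, with a ratio that changed by -0.16 between the groups, or by -0.09 without air replicate 3 and -0.23 without air replicate 2. CAMTA6 fell while CAMTA5 was not called, and the ratio of CAMTA5 to CAMTA6 went from 1.32, 1.21 and 1.12 to 1.67, 1.75 and 1.94, a difference of 0.57 on the log2 scale. No stretch of 50 bases in the exons of any member was found elsewhere in the nuclear genome.

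**Figure D4:**
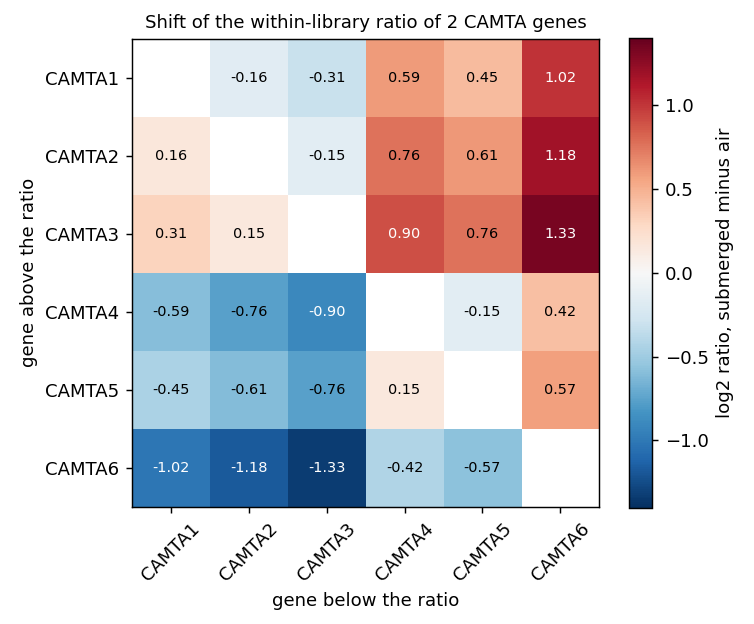
Grid of the change in the within-library log2 ratio of counts, submerged minus air, of the gene in the row over the gene in the column; the 15 pairs appear on both sides of the diagonal with opposite sign. The pairs with CAMTA6 reach the highest values, up to 1.33 with CAMTA3, and CAMTA2 over CAMTA3 is the pair whose groups overlap.

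Many genes shared the pattern of each member over the 6 libraries. The root mean square difference of mean-centred log2 CPM was used as the measure of likeness, over 14901 genes with a mean of at least 5 CPM. The nearest to CAMTA3 were AT4G38040, at 0.03, and AT3G47080, at 0.04, and 197 genes lay within 0.1. For CAMTA1 the nearest were AT4G06598 and GPX6, a glutathione peroxidase gene, both at 0.03, with 1021 genes within 0.1. AT5G44320 and AT5G13100 were nearest to CAMTA2, both at 0.03, with 494 genes in that range. The genes nearest to CAMTA6 were AT2G17930, at 0.02, and the nucleoporin gene LNO1, at 0.03, among 515 genes. AT5G27290 and AT5G54540 were nearest to CAMTA4, with 1176 genes in range, and AT2G46910 and AT5G11500 to CAMTA5, with 1873.

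Calmodulins are the calcium sensors that bind CAMTA proteins. All 7 calmodulin genes were called higher, beside 28.8% of all tested genes, with a median log2 fold change of 0.48 beside 0.01. CAM2 stood apart, at 31.4, 29.8 and 28.3 CPM in air and 172, 180 and 166 CPM under water, a log2 fold change of 2.53 ± 0.06 (edgeR adjusted p = 1.88e-11). CAM7 rose by 0.76 ± 0.05 and CAM3 by 0.54 ± 0.05 on the log2 scale. Several calmodulin genes are alike in sequence, to a degree not measured here. Reads could have been split among them, so single values are uncertain.

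Of 5 genes whose products are known to act on or with CAMTA3, 3 were called higher and none lower, beside 28.8% and 26.1% of all tested genes, and the median log2 fold change was 0.17. SR1IP1, an adaptor that promotes the degradation of CAMTA3 in immunity, rose by 0.40 ± 0.08 (edgeR adjusted p = 0.001), from 51.9, 52.1 and 61.7 CPM to 66.5, 74.5 and 77.1 CPM. MPK3, a MAP kinase that phosphorylates CAMTA3, rose by 1.05 ± 0.07 (edgeR adjusted p = 4.87e-08). Its partner kinase MPK6 was called at 0.17 ± 0.06 (edgeR adjusted p = 0.0285), a call lost in 6 of 19 alternatives. These were upper quartile factors (0.05, adjusted p = 0.459), library size alone (0.0577), DESeq2 (0.0735), and leaving out air replicate 2 (0.110), air replicate 3 (0.0520) or submerged replicate 3 (0.0666). DSC1 and DSC2, immune receptors associated with CAMTA3, had -0.31 ± 0.14 (adjusted p = 0.0776) and -0.10 ± 0.19 (adjusted p = 0.663).

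Genes known to be promoted by CAMTA factors made a list of 10, of which 7 had enough counts to be tested. Of these, 6 were called higher (all tested genes, 28.8%) and none lower (26.1%), with a median log2 fold change of 2.55. The deadenylase gene CAF1A went from 8.14, 4.33 and 7.47 CPM to 164, 184 and 169 CPM, or 4.68 ± 0.15 on the log2 scale (edgeR adjusted p = 6.13e-11). ZAT12, a zinc finger regulator whose CGCG box is printed above, rose by 3.78 ± 0.19, and BAP1, a negative regulator of cell death, by 3.21 ± 0.19. The cold regulator CBF2, the other listed gene with a printed site, had 37, 6 and 30 counts in air and 170, 145 and 127 under water, a rise of 2.55 ± 0.37 (edgeR adjusted p = 6.73e-05). Its 6 counts in air replicate 2 were under the filter's minimum, so its air libraries alone would not have passed. CBF2 was thus tested through its submerged libraries, and the median of the list is its own value. ORA47 was at -0.19 ± 0.19 (adjusted p = 0.420). CBF1, CBF3 and GOLS3 were not tested. CBF3 had 34 counts over the air libraries and 0 over the submerged ones, where the detection floor was set at 6 counts. A gene seen only in air was thus left out of the calls of this list.

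Genes known to be repressed by CAMTA3 made a list of 14, of which 10 were tested. Here 6 were called higher, against 28.8% of all tested genes, and none lower, against 26.1%, with a median log2 fold change of 0.58. Among the called genes, SARD1 would not have passed the count filter on its air libraries alone. CBP60G, an activator of salicylic acid synthesis, rose by 3.43 ± 0.14 (edgeR adjusted p = 3.97e-10), from 2.30, 2.54 and 2.07 CPM to 23.2, 23.7 and 28.0 CPM. NDR1, needed for immunity through a class of resistance proteins, rose by 2.44 ± 0.20, and EDS5, which exports a salicylic acid precursor from plastids, by 1.93 ± 0.17. EIN3, a transcription factor of ethylene signalling with a CGCG box shown above, rose by 0.28 ± 0.05 (edgeR adjusted p = 0.000526). ICS1, which makes that precursor, was not called, at 0.06 ± 0.10, nor were PBS3, PAD4 and PR5. ALD1, FMO1, PR1 and PR2 were not tested, with at most 6 counts over a group. Every called gene in the promoted and in the repressed list was higher under water.

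**Figure D5:**
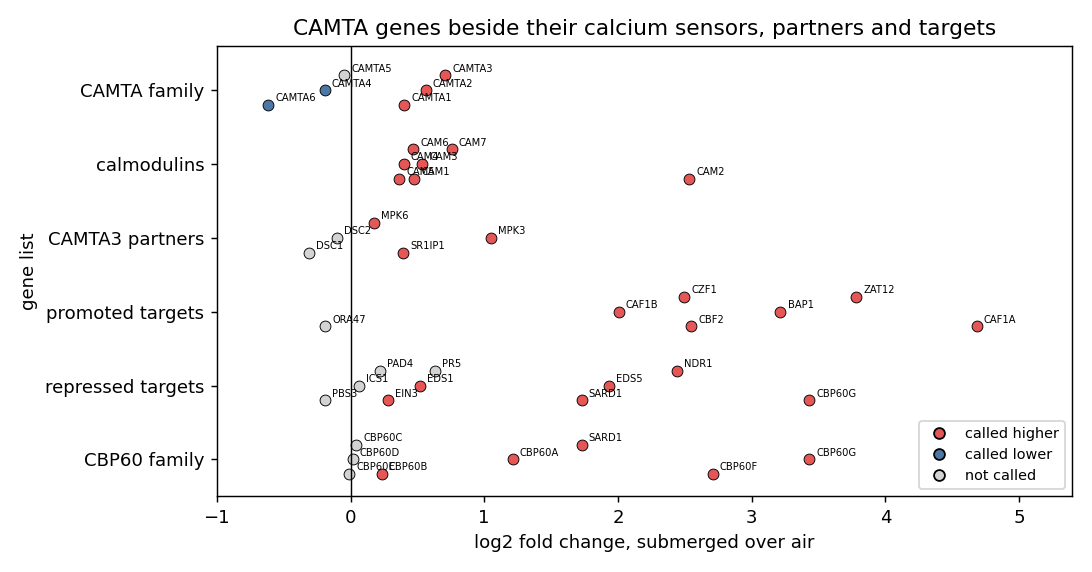
Log2 fold change, submerged over air, of the CAMTA family and of each tested gene in the lists around it, with 1 point per gene coloured by its call. The promoted targets have the highest median, 2.55, the calmodulins lie between 0.36 and 2.53, and the genes called lower, CAMTA4 and CAMTA6, are in the CAMTA family.

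Promoters with the binding core were counted across all tested genes as a description, without a test. Of 540 tested genes with CGCGTT in the 250 bases before the start, 50.4% were called higher and 16.7% lower, with a median log2 fold change of 0.34. Over all 19418 tested genes with a promoter in the annotation, the shares were 28.9% and 26.2% and the median 0.00. Genes called at least 4-fold higher were 14.3% of the CGCGTT genes and 3.45% of all. For the 355 genes with ACGCGT, 56.3% were called higher and 15.5% lower. The wider CGCG box, in 1312 genes, gave 45.4% and 20.4%. The 3 groups share genes, and base composition was not matched.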

How the data were processed

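RNA of whole seedlings was sequenced in 6 libraries, 3 per group, with groups and replicate numbers from the sample titles. The deposited table gives whole-number counts, RPKM, TPM and CPM per gene, per the file headers. The CPM deposited by the authors is a signal in which counts were divided by 1 constant per library (sums of 0.964 to 1.03 times 1e6) and was not tested. The submitters' processing notes name TAIR10 as the build. The aligner, counter and strand mode: not given in the sources used here. Log2 fold changes and p-values of the authors' deposited table were quoted only where named.

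Counts were tested with edgeR 4.0.16 (R 4.3.3; TMM, filterByExpr with minimum count 10 and total 15, quasi-likelihood F test, Benjamini-Hochberg over 19495 genes, called under 0.05). The SE of a log2 fold change was taken as its size divided by the square root of its F statistic. CPM in the text was computed here from counts and TMM factors. Shares and ratios were tested by exact permutation in scipy 1.17.1. The procedure was tested on simulated data in which far fewer genes changed than were called here. That test therefore cannot show how the scaling behaves in these data. Low counts (1 to 20) were even in 85.8% to 87.4% of genes, so the floor was 3 read pairs, or 6 counts, a group. The floor covers counting error only, while the SD and SE values also hold the spread between libraries. Replicates differed by 4.46 to 9.07 times a counting variance set equal to the expected count, which may be too low where counts come in pairs. No replicates had identical counts, so none was a repeat deposit.

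Sequences come from RefSeq TAIR10.1, which may differ from the authors' build. Lengths implied by the RPKM equalled its exon lengths, after division by 1 constant (1.02, taken from the data), within 0.1% in 99.1% of 15376 genes, the 6 members included. Of 27655 identifiers, 27445 matched RefSeq. Promoters of the other members are not reported here. The members and gene lists were chosen with earlier results of these data known. Text names all members, up to 3 called genes per list and direction with the largest changes, whole lists of 5 or fewer, the 2 nearest patterns per member, and genes completing a count. CBF2 and EIN3 were named for their printed sites after their values were seen, as was the CACGTG search. Alternatives were other scalings, filters and tools (DESeq2 1.42.0, limma 3.58.1 on counts and on log2 TPM), a root marker covariate, a replicate block, removal of organelle genes, halved counts and leaving out each library.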

Additional observations from a re-analysis of the deposited data

How the results depend on the processing

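CAMTA1, CAMTA2, CAMTA3 and CAMTA6 kept their direction and call in all 19 alternatives, with log2 fold changes of 0.28 to 0.44, 0.44 to 0.61, 0.58 to 0.79 and -0.74 to -0.56. CAMTA4 was called in 10 of 19. It was not called with DESeq2 (-0.20), limma on log2(TPM + 0.1) (-0.19) or log2(TPM + 1) (-0.18), or the root marker covariate (-0.19), which left 1 member called lower in each, and it ran from -0.26 to -0.12 with 1 library left out, with 1 to 2 members called lower. CAMTA5 was called lower with upper quartile scaling (-0.17), where 4465 genes were higher and 6813 lower in place of 5624 and 5094. The number of CAMTA3 partners called lower went from 0 to 1 (DSC1) with upper quartile scaling and with the root marker covariate, and ran from 0 to 1 with 1 library left out. With no filter, 1 promoted target was called lower (CBF3), and the range with 1 library left out was 0 to 1. In summed counts in place of TPM, the share of CAMTA6 changed by -4.07 percentage points (-3.68 in TPM). On TPM + 1, the log2 ratio of CAMTA1 to CAMTA6 changed by 0.96 (1.02 on counts). With ACGCGT and CGCGTT in place of the CGCG box, 49.6% of genes were called higher (45.4%). The cause of these changes was not tested. No result reversed.

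Replicate numbers were not taken to pair the libraries. The deviations from the group mean of same-numbered air and submerged libraries had correlations of -0.04, 0.04 and 0.04. Air replicate 3 correlated best with its own number, and air replicates 1 and 2 with another (0.10 and 0.11). With 3 libraries a group, these values cannot show whether same-numbered libraries were grown or handled together. With the replicate block, 5470 genes were higher and 4877 lower, CAMTA4 was at -0.20 (adjusted p = 0.0472), and no member's call changed. The members had 407 to 3879 counts a library, and the part of counting error in their spread between 3 libraries was not tested. The targets not tested are limited by depth.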

Other observations

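The CBP60 family is another group of calmodulin-binding transcription factors, separate from the CAMTA proteins, and it holds activators and a repressor of salicylic acid defence. Of its 8 genes, 5 were called higher under water and none lower, with a median log2 fold change of 0.72 beside 0.01 over all tested genes, of which 28.8% were called higher. In 7 of 19 alternatives 4 were called higher: upper quartile factors, library size alone, a filter of 5 CPM, and leaving out air replicate 1 or 3 or submerged replicate 2 or 3. CBP60F went from 22.6, 22.2 and 23.3 CPM in air to 150, 155 and 140 CPM under water, with no overlap, a rise of 2.71 ± 0.06 on the log2 scale (SE; edgeR adjusted p = 1.27e-11). CBP60G, given above as a target repressed by CAMTA3, and SARD1, which activates the same synthesis genes, are in both lists. SARD1 had 16, 9 and 18 counts in air and 56, 46 and 47 under water, a rise of 1.73 ± 0.37 (edgeR adjusted p = 0.00146). Its 9 counts in air replicate 2 were under the filter's minimum, so it was tested through its submerged libraries. CBP60A, a negative regulator of immunity, rose by 1.21 ± 0.08, and CBP60B was called at 0.23 ± 0.08 (edgeR adjusted p = 0.0279). CBP60C, CBP60D and CBP60E were not called, at 0.04 ± 0.06, 0.02 ± 0.22 and -0.01 ± 0.17.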
